A study of Arabidopsis thaliana with 14 samples.

Results

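The genes described here are 54 Arabidopsis thaliana genes that the annotation of the array names by a locus code only. Their transcripts were high in the embryo proper and in the micropylar and cellularized endosperm. In the chalazal endosperm and both parts of the seed coat they were low. The genes were chosen by the measured signals themselves. The lowest of the 3 means in embryo proper, micropylar endosperm and cellularized endosperm had to be at least 300, and at least 3 times the highest of the 3 means in chalazal endosperm, chalazal seed coat and general seed coat, with that highest mean set to no less than 16. Of 22810 probe sets on the array, 11933 name exactly 1 gene by a locus code, and 54 of these met the rule. Each of the 54 stands for a different gene. The contrast between the high and the low compartments is therefore a description of how the genes were picked, and it is not tested here.

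Seeds came from ecotype Ws-0, with no mutant, transgene or treatment in any group. Siliques of 1.6 to 1.9 cm on plants aged 38 to 46 days held seeds at the linear-cotyledon stage, with embryos of 175 ± 11 µm. Compartments were cut by laser from fixed, paraffin-embedded sections, and 2 to 5 ng of RNA per sample was amplified for Affymetrix ATH1 arrays. The 7 groups hold 2 arrays each, titled as biological replicates. They are the embryo proper, the endosperm in its micropylar, cellularized and chalazal parts, the seed coat in its chalazal and general parts, and whole seeds. For the micropylar endosperm, titles and sources give that tissue but the descriptions give whole seeds; the titles were followed. Neither the plants nor the number of seeds behind each replicate are stated. The p-values therefore rest only on the spread of these particular samples. That spread was pooled over all 7 groups and drawn towards that of other probe sets.

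A seed of this stage joins an embryo and an endosperm, both products of fertilisation, with a seed coat that belongs to the mother plant. The endosperm begins as a syncytium. Its micropylar part lies around the young embryo and its peripheral part becomes cellular, while the chalazal part stays a multinucleate cyst beside the end of the maternal vascular strand, where nutrients enter. The seed coat at the chalaza receives that strand, and the general seed coat encloses the rest and forms the pigment and mucilage layers.

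The files and the RefSeq gene table (assembly TAIR10.1) give these genes no functional name. All 54 were found in that table as protein-coding genes, and for all 54 its symbol is the locus code again. The synonyms are clone-based names, except ATXYN4 for AT2G14690, a name of the xylanase type, after enzymes that cut the xylan of plant cell walls. No function is given below for the other 53 codes.

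Values are signal intensities on a linear scale, 1 colour, which the authors had scaled to the same trimmed mean on every array (500), and their number limits the precision. Array medians lay between 106.6 and 183.1. GAPDH control probe sets at the 3' and 5' ends of the transcript, whose ratio grows as RNA is shortened, differed by a factor of 13.6 and 8.34 in the 2 chalazal endosperm samples, and of 2.72 to 7.87 in the other 12 samples. The same ratio for ubiquitin and actin did not set the chalazal endosperm apart. Ubiquitin gave 8.63 and 8.72 there, within the 5.36 to 12.02 of the other samples, and actin gave 14.8 and 9.01, against 9.69 to 36.8 in the others. Compartment markers with a probe set of their own were few. All 3 of the embryo markers measured (YAB3, YAB5 and BBM) were highest in the embryo proper, 4 of 5 endosperm markers in the micropylar or cellularized part, 4 of 5 chalazal endosperm markers there, and all 4 chalazal seed coat markers in that tissue. The exceptions were SWEET15, highest in the general seed coat, AGL62, whose means were at most 31.4 in all compartments, and BAN, listed for the general seed coat, which was highest in the chalazal seed coat.

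Over the 54 genes the group means ran from 312 to 50270 in the embryo proper (median 1492), from 323 to 18093 in the micropylar endosperm (median 1410) and from 329 to 18757 in the cellularized endosperm (median 1339). They ran from 4.97 to 509 in the chalazal endosperm (median 68.3), from 7.42 to 1259 in the chalazal seed coat (median 76.1) and from 16.5 to 2547 in the general seed coat (median 193). Medians in the 3 high compartments thus lay close together, and the general seed coat had the highest median of the 3 low ones. In cut tissue of this kind, fewer cells that express a gene and less RNA per cell cannot be told apart. All 6 arrays of the high compartments lay above all 6 arrays of the low compartments for 52 of the 54 genes, where the share of all 15951 tested probe sets was 4.66%. Since the rule used this contrast, nothing is read from that count. The 2 exceptions were AT1G71691 and AT1G04660, each with an endosperm array below an array of the general seed coat.

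**Figure D1:**
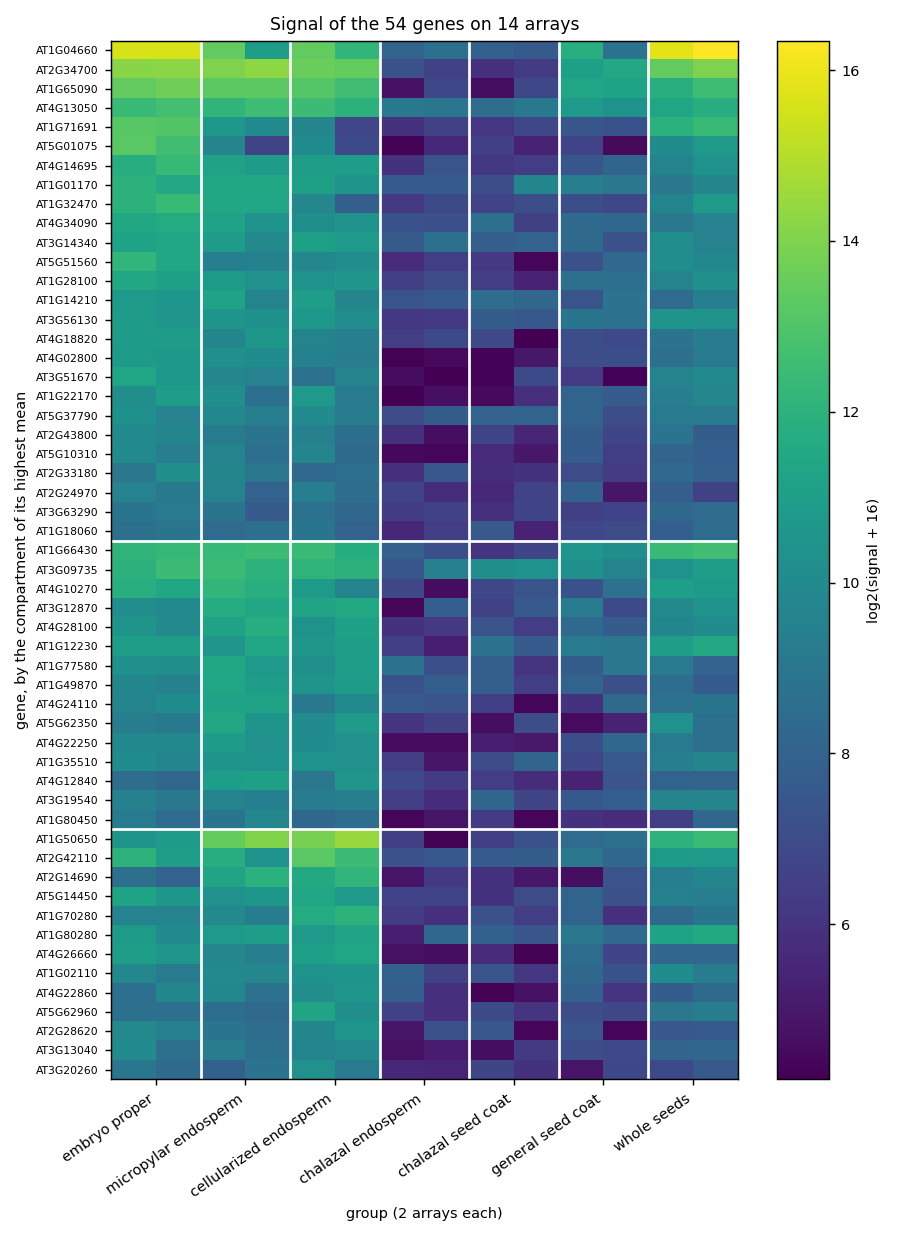
Signal of the 54 genes (rows, grouped by the compartment of their highest mean: embryo proper at the top, micropylar endosperm in the middle, cellularized endosperm at the bottom) on 14 arrays (columns, 2 per group), as log2(signal + 16). The 3 groups on the left are high by the choice of the genes, and the whole-seed arrays on the right were not used in the choice; AT1G04660 has its highest signals in the embryo proper and in whole seeds.

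The highest mean fell in the embryo proper for 26 genes, in the micropylar endosperm for 15 and in the cellularized endosperm for 13. Among the low compartments the general seed coat had the highest mean for 43 genes, the chalazal seed coat for 8 and the chalazal endosperm for 3. Replicate arrays differed by a median factor of 1.28 in the embryo proper, 1.38 in the micropylar and 1.53 in the cellularized endosperm. The median factor was 1.88 in the chalazal endosperm, 2.37 in the chalazal seed coat and 1.78 in the general seed coat, so the low values were the less repeatable ones. In the chalazal endosperm 8 genes had means under 16.

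At the minimum signal, AT4G12840, AT2G14690 and AT3G63290 lay just inside with lowest high-compartment means of 312, 317 and 323, and AT1G72500, AT5G38520 and AT5G52220 just outside with 285, 261 and 227. At the ratio, AT3G56130, AT1G65090 and AT1G01170 lay just inside with 3.00, 3.00 and 3.10, and AT3G47650, AT5G46160 and AT1G24360 just outside with 2.996, 2.99 and 2.96. The ratio ran from 3.00 to 11.2 over the 54 genes, with a median of 4.15. On replicate 1 arrays alone 53 genes met the rule, of which 36 are among the 54, and on replicate 2 arrays alone 56 did, of which 31 are. Membership of single genes is thus loose, and not only near the edges. AT5G01075, with a ratio of 9.54, read 840 and 1075 on the replicate 1 arrays of the micropylar and cellularized endosperm. On the replicate 2 arrays it read 85.0 and 101, below the minimum signal. AT1G71691 read 840 on the replicate 1 array of the cellularized endosperm and 95.1 on the replicate 2 array. For such genes a high mean in an endosperm part rests on 1 array.

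Of the probe sets that name 1 gene by a symbol, 4 met the same thresholds, and 45 with no single gene name did. These 4 symbols give some biological bearing. NTRC, a plastid thioredoxin reductase, averaged 2296, 1348 and 1780 in the embryo proper, micropylar and cellularized endosperm, against 309, 221 and 281 in the chalazal endosperm, chalazal seed coat and general seed coat. GPDHC1, a cytosolic glycerol-3-phosphate dehydrogenase, averaged 988, 505 and 663 in the high compartments, against 8.87, 121 and 83.9 in the low ones. WLIM2a, an actin-binding LIM protein, averaged 1646, 1988 and 1561, against 9.88, 130 and 410. TRM28, of a family that binds a microtubule-associated complex, averaged 1053, 474 and 497, against 34.9, 35 and 66.7, with a wide spread between replicates. Its micropylar arrays read 797 and 150 and its cellularized endosperm arrays 97.8 and 896, against 10.7 and 123 in the general seed coat, so 1 endosperm array lay below 1 general seed coat array. When the ratio was lowered to 2, a step taken after the values were seen, 20 symbols met the thresholds. Among them were PRK, a Calvin cycle kinase (12800, 15742 and 11896 against 530, 531 and 4441), PSAN, a photosystem I subunit (5931, 6529 and 3416 against 220, 92.9 and 1376), AUR2, a mitotic kinase (2007, 1120 and 2321 against 306, 34.7 and 447), and OLEO3, an oil body protein (16217, 17155 and 11319 against 96.7, 21.6 and 5405). They were picked from the 20, which also held CYP71B5, AOP3, EXPB1, IQD31, TROL and XI-I. No common theme was tested.

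The 8 strongest genes by their mean over the high compartments were AT1G04660, AT2G34700, AT1G50650, AT1G65090, AT4G13050, AT1G66430, AT3G09735 and AT2G42110. AT2G34700 read 18461 and 19234 in the embryo proper, 16274 and 19912 in the micropylar endosperm, and 12154 and 11340 in the cellularized endosperm. The same gene read 131 and 79.0 in the chalazal endosperm, 41.2 and 63.9 in the chalazal seed coat, and 2086 and 2918 in the general seed coat. It was thus near the bottom of the scale in both chalazal tissues and intermediate in the general seed coat.

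AT1G65090 had a like profile. It read 10939 and 13338 in the embryo proper, 9818 and 10013 in the micropylar endosperm, and 9072 and 6227 in the cellularized endosperm, against 11.5 and 95.9 in the chalazal endosperm, 8.78 and 98.4 in the chalazal seed coat, and 2667 and 2428 in the general seed coat. AT4G13050 read 5551 and 6717, 4496 and 6140, and 5809 and 4059 in the high compartments in the same order, against 541 and 477, 349 and 525, and 1680 and 1381 in the low ones. AT1G66430 read 4544 and 4966, 5103 and 5797, and 5349 and 3307, against 228 and 126, 51.0 and 89.5, and 1495 and 1170. In all 3 genes the general seed coat arrays lay above the 4 chalazal arrays and below the high ones. AT3G09735 differed in that its chalazal seed coat arrays, at 1182 and 1337, were about as high as its general seed coat arrays, at 1249 and 763, with 156 and 703 in the chalazal endosperm. Its high arrays read 4025 and 5837 in the embryo proper, 5683 and 4248 in the micropylar endosperm, and 4342 and 4049 in the cellularized endosperm.

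The 6 genes with the largest ratio were AT3G51670, AT5G01075, AT4G14695, AT5G62350, AT1G80450 and AT5G14450, with ratios of 11.2, 9.54, 9.53, 8.91, 8.09 and 7.31. AT3G51670 read 2539 and 1608 in the embryo proper, 886 and 745 in the micropylar endosperm, and 417 and 783 in the cellularized endosperm. Its low arrays read 8.11 and 2.21 in the chalazal endosperm, 3.70 and 103 in the chalazal seed coat, and 64 and 3.67 in the general seed coat, so the low values spread widely and the ratio is loosely fixed. AT4G14695 was steadier, with 3469 and 5174, 2290 and 1877, and 2036 and 2000 in the high compartments, against 45.9 and 148, 55.3 and 68.2, and 157 and 267 in the low ones. AT5G14450 read 2364 and 1566, 1276 and 1571, and 2600 and 1699, against 81.8 and 83.4, 46.9 and 114, and 258 and 132.

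AT5G62350 had its highest mean in the micropylar endosperm, whose arrays read 2725 and 1391 and overlapped those of the cellularized endosperm, at 1041 and 1640. It read 626 and 535 in the embryo proper, against 51.6 and 78.7 in the chalazal endosperm, 8.64 and 115 in the chalazal seed coat, and 7.33 and 25.8 in the general seed coat. It was 1 of the 2 genes whose lowest mean was in the general seed coat. AT1G80450, the weakest of the 6, averaged 448, 676 and 329 in the high compartments, and no more than 61.8 on any low array.

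The choice of the genes fixes no direction among the 3 high compartments, so these were compared with limma on log2(signal + 16) over all 15951 probe sets, with Benjamini-Hochberg adjustment. A gene was called at an adjusted p below 0.05 and a change of at least 2-fold. The 3 comparisons share arrays pairwise, so their results are not independent. In all, 11 of the 54 genes (20.4%) were called in at least 1 of them, where 24.8% of all tested probe sets were. The share among these genes is thus not above the background. The rule, however, kept out genes that are low in any 1 of the 3 compartments, a limit not set on the background. Nothing about the 54 genes as a set is therefore read from these shares. The means of the 3 compartments lay within a factor of 2 for 25 genes and spanned more than a factor of 4 for 10.

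**Figure D2:**
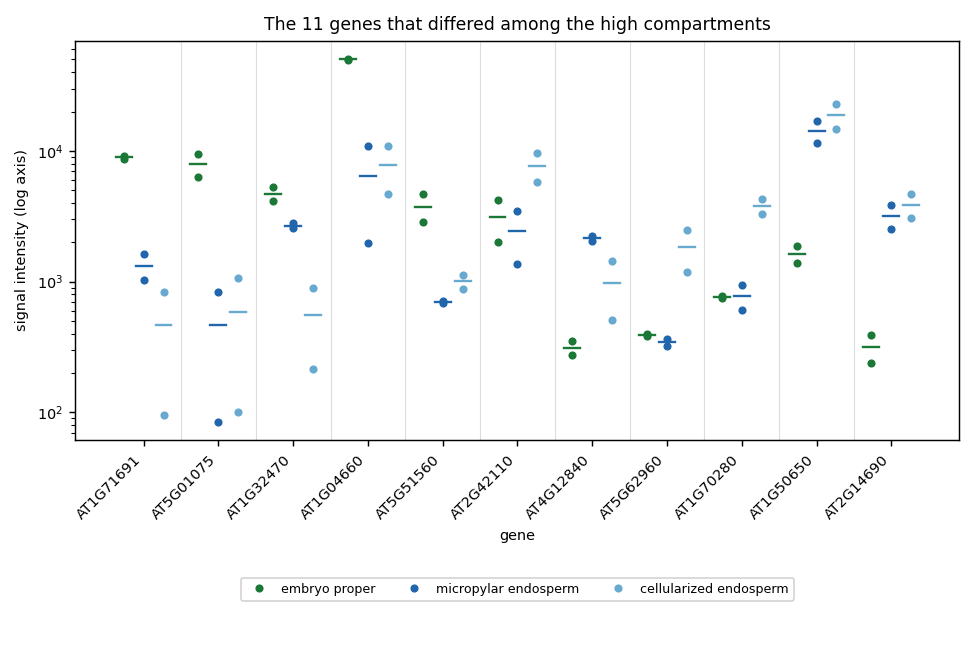
Signal intensity (log axis) of the 11 genes called in at least 1 comparison among the high compartments; dots are single arrays, bars the mean of 2 arrays, and genes run from the largest to the smallest ratio of embryo proper to cellularized endosperm. AT1G71691 and AT5G01075 are highest in the embryo proper at the left, and AT1G50650 and AT2G14690 are highest in the endosperm at the right.

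Between the embryo proper and the cellularized endosperm, 5 of the 54 genes (9.26%) were higher in the embryo and 4 (7.41%) were lower. Of all tested probe sets 7.98% were higher and 7.33% lower. The shares are near each other, with the same limit on what can be read from them. The median change was 0.29 over the 54 genes and 0.07 over all tested probe sets, on the log2 scale.

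AT1G71691 read 9188 and 8631 in the embryo proper, against 840 and 95.1 in the cellularized endosperm, a change of 4.85 (SE 0.67, adjusted p = 9.53e-05). AT5G01075 read 9532 and 6344 in the embryo, against 1075 and 101 in the cellularized endosperm, a change of 4.45 (SE 1.02, adjusted p = 0.00613). Both genes differed widely between the endosperm replicates, and the embryo arrays lay above both. AT1G32470 read 4139 and 5279 in the embryo, against 892 and 214 in the cellularized endosperm (3.36, SE 0.59, adjusted p = 0.000785). AT1G04660, the strongest of the 54 genes, read 50550 and 49989 in the embryo, against 10842 and 4705 (2.81, SE 0.74, adjusted p = 0.0151). AT5G51560 read 4666 and 2837, against 872 and 1133 (1.85, SE 0.61, adjusted p = 0.0453).

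Lower in the embryo proper was AT2G14690, also listed as ATXYN4, which read 393 and 240 there, against 3061 and 4719 in the cellularized endosperm, a change of -3.56 (SE 0.74, adjusted p = 0.00298). AT1G50650 read 1391 and 1872 in the embryo, against 14734 and 22781 (-3.49, SE 0.54, adjusted p = 0.000264). AT1G70280 read 751 and 783, against 3276 and 4277 (-2.26, SE 0.63, adjusted p = 0.02). AT5G62960 read 396 and 384, against 2497 and 1180 (-2.09, SE 0.57, adjusted p = 0.0173). In all 4 genes the arrays of the 2 tissues were apart.

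Of these 9 calls, those of AT1G71691, AT1G32470, AT2G14690 and AT1G50650 stood under every alternative run. Leaving out embryo proper replicate 1 ended the calls of AT5G01075 (adjusted p = 0.0701), AT1G04660 (0.0917), AT5G51560 (0.29), AT1G70280 (0.111) and AT5G62960 (0.0914), and left 4 called genes. Without embryo proper replicate 2 the calls of AT1G04660 (0.0886), AT5G51560 (0.0986), AT1G70280 (0.101) and AT5G62960 (0.0979) ended, without cellularized endosperm replicate 1 those of AT5G51560 (0.197), AT1G70280 (0.0661) and AT5G62960 (0.186), and without replicate 2 those of AT5G01075 (0.126), AT1G04660 (0.157), AT5G51560 (0.116) and AT1G70280 (0.133). The changes of AT5G01075 and AT5G62960 were then 2.84 (without cellularized endosperm replicate 2) and -1.56 (without replicate 1). AT5G51560 lost its call under all but the quantile, pseudocount 64 and stricter-filter settings, with the replicate block giving adjusted p = 0.0523. AT1G04660 also lost its call when limma was run without the variance trend (adjusted p = 0.0736). Scaling the arrays to equal medians gave a median over all probe sets of -0.16, against 0.07 as deposited. The share of higher calls among all calls was then 37.3%, against 52.1% as deposited, and the 9 genes kept their direction.

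Between the embryo proper and the micropylar endosperm, 4 genes (7.41%) were higher in the embryo and 3 (5.56%) were lower, where 6.66% of all tested probe sets were higher and 8.6% lower. Again the shares were near the background, with the limit given above. AT5G01075 read 9532 and 6344 in the embryo, against 840 and 85.0 in the micropylar endosperm (4.73, SE 1.02, adjusted p = 0.00409). AT1G04660 read 50550 and 49989, against 10880 and 1974 (3.43, SE 0.74, adjusted p = 0.00419). AT1G71691 read 9188 and 8631, against 1631 and 1027 (2.77, SE 0.67, adjusted p = 0.00892), and AT5G51560 read 4666 and 2837, against 682 and 712 (2.36, SE 0.61, adjusted p = 0.0126). For AT5G01075 and AT1G04660 the second micropylar array was the low one.

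The genes lower in the embryo were AT2G14690, with 393 and 240 in the embryo against 2521 and 3884 in the micropylar endosperm (-3.28, SE 0.74, adjusted p = 0.00542), AT1G50650, with 1391 and 1872 against 11487 and 16951 (-3.10, SE 0.54, adjusted p = 0.000761), and AT4G12840. The last read 350 and 273 in the embryo, against 2043 and 2252 in the micropylar endosperm (-2.73, SE 0.68, adjusted p = 0.01), and in the cellularized endosperm its arrays read 505 and 1449. Only AT1G50650 kept its call under every alternative run. Without micropylar endosperm replicate 2 it was the 1 gene still called, with adjusted p of 0.0949 for AT5G01075, 0.102 for AT1G04660, 0.0936 for AT1G71691, 0.072 for AT5G51560, 0.0682 for AT2G14690 and 0.0763 for AT4G12840. Without embryo proper replicate 1 the calls of AT5G01075 (0.0523), AT1G71691 (0.0705), AT5G51560 (0.136) and AT4G12840 (0.0501) ended. Without embryo proper replicate 2 those of AT1G71691 (0.0615), AT2G14690 (0.0648) and AT4G12840 (0.0824) ended, and without micropylar endosperm replicate 1 those of AT5G51560 (0.0774) and AT4G12840 (0.0612). With a pseudocount of 1 the call of AT5G51560 ended (0.0661). The summed signal of the 3 embryo markers was 2978 and 3369 in the embryo proper, against 126 and 184 in the micropylar and 165 and 130 in the cellularized endosperm; its part in the replicate differences above was not tested.

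Between the micropylar and the cellularized endosperm, 1 of the 54 genes (1.85%) was higher in the micropylar part and 3 (5.56%) were lower, where 4.26% of all tested probe sets were higher and 2.31% lower. AT1G32470 read 2787 and 2582 in the micropylar endosperm, against 892 and 214 in the cellularized endosperm (2.56, SE 0.59, adjusted p = 0.0138). AT1G70280 read 949 and 610, against 3276 and 4277 (-2.27, SE 0.63, adjusted p = 0.0369), and AT5G62960 read 363 and 324, against 2497 and 1180 (-2.27, SE 0.57, adjusted p = 0.0218). AT2G42110 read 3482 and 1367 in the micropylar endosperm, against 9583 and 5772 (-1.76, SE 0.48, adjusted p = 0.0355). AT1G70280 and AT5G62960 were thus at like levels in the embryo and the micropylar endosperm and higher in the cellularized part.

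None of these 4 calls stood under every alternative run. Without micropylar endosperm replicate 2, limma called 0 of the 54 genes (5 at an unadjusted p below 0.05), with adjusted p of 0.0854 for AT1G32470, 0.228 for AT1G70280, 0.124 for AT5G62960 and 0.35 for AT2G42110, whose change was -1.09. Without micropylar endosperm replicate 1 AT1G32470 (0.119), AT1G70280 (0.123) and AT5G62960 (0.122) lost theirs. Without cellularized endosperm replicate 1 this held for AT1G70280 (0.12), AT5G62960 (0.21) and AT2G42110 (0.248), and without replicate 2 for AT1G32470 (0.176, change 1.57), AT1G70280 (0.186) and AT2G42110 (0.0683). AT1G70280 also lost its call with quantile normalization (0.0569), with a pseudocount of 1 (0.0758) and without the variance trend (0.0732), and AT2G42110 without the trend (0.0982). With equal medians the median of all probe sets was -0.21, against 0.08 as deposited, and the share of higher calls was 39.2%, against 64.8% as deposited, while the 4 calls stood.

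**Figure D3:**
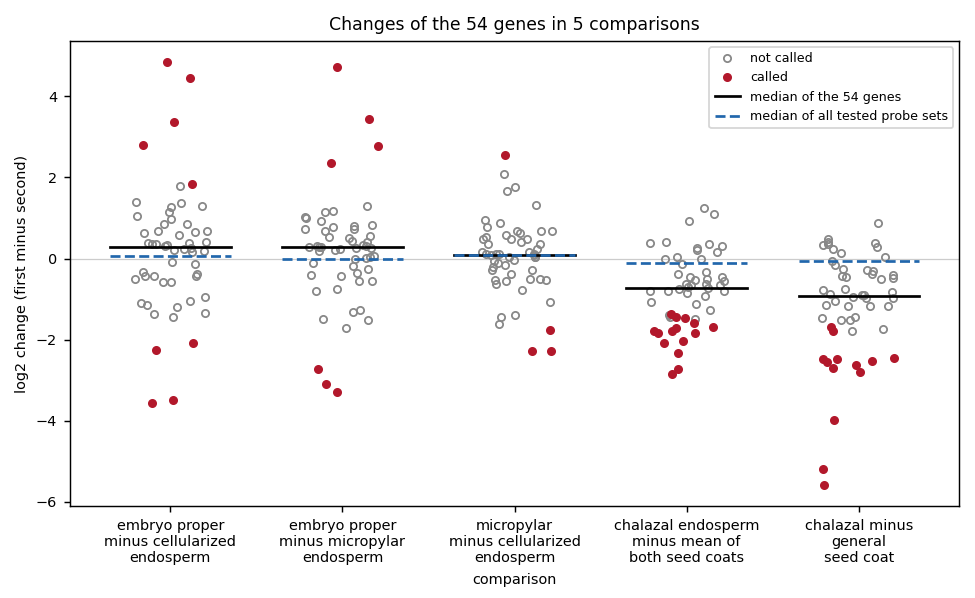
Log2 change of each of the 54 genes in 5 comparisons, named as first minus second group, with called genes filled; the solid bar is the median of the 54 genes and the dashed bar that of all tested probe sets. In the 2 comparisons among low compartments at the right, all called genes lie below 0, with medians of -0.74 and -0.92 against -0.10 and -0.05 over all tested probe sets. The rule capped the levels in these compartments, so nothing about the 54 genes as a set is read from these medians.

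The same approach was taken to the low compartments, whose levels the rule capped at a common ceiling. The rule named no order among them, but the ceiling kept out genes that are strongly high in any 1 of them. Of the 54 genes, 30 (55.6%) reached the array median on at least 2 of the 6 low arrays, against 87.7% of all tested probe sets, and the others passed the filter on low values through other arrays. The shares of all tested probe sets below are therefore given for reference, and nothing about the 54 genes as a set is read from them. Many values are near the pseudocount, so the size of a change depends on it. Between the chalazal and the general seed coat, 13 of the 54 genes (24.1%) were lower in the chalazal part, where 8.32% of all tested probe sets were lower. By limma 0 of the 54 were called higher (0 at an unadjusted p below 0.05), beside 6.29% of all tested probe sets, a direction that the ceiling limits. The median change was -0.92 over the 54 genes and -0.05 over all tested probe sets, and 10 of the 54 lay above 0.

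AT1G65090 read 8.78 and 98.4 in the chalazal seed coat, against 2667 and 2428 in the general seed coat, a change of -5.59 (SE 0.61, adjusted p = 1.04e-05). AT2G34700 read 41.2 and 63.9, against 2086 and 2918 (-5.20, SE 0.33, adjusted p = 5.74e-08). AT1G66430 read 51.0 and 89.5, against 1495 and 1170 (-3.99, SE 0.39, adjusted p = 3.66e-06), and AT1G28100 read 67.1 and 24.6, against 392 and 381 (-2.79, SE 0.48, adjusted p = 0.000652). These 4 are the largest changes, the arrays of the 2 parts did not overlap, and the calls stood under every alternative run, as did those of AT4G13050 and AT4G02800. The other 9 called genes had changes of -2.70 to -1.68. Among them, AT4G02800 read 119 and 120 in the general seed coat, below the array medians of 146 and 163. Its chalazal arrays read lower still, so it passed the filter only through arrays outside the low compartments. Of the 13 calls, 9 remained without chalazal seed coat replicate 1, 8 without its replicate 2, 8 without general seed coat replicate 1 and 10 without its replicate 2.

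**Figure D4:**
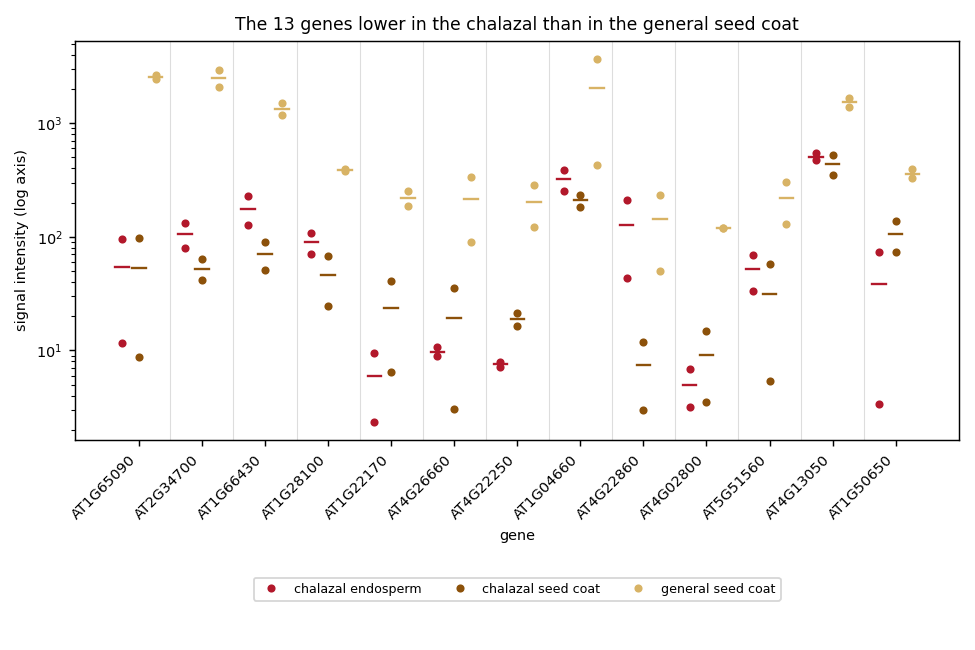
Signal intensity (log axis) of the 13 genes called lower in the chalazal than in the general seed coat, on the 2 arrays each of chalazal endosperm, chalazal seed coat and general seed coat (dots; bars are means of 2 arrays). For every gene shown both general seed coat arrays lie above both chalazal seed coat arrays. Both general seed coat arrays of AT1G65090 and AT2G34700 lie above 2000, while those of AT1G04660 are far apart, at 3685 and 430.

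Markers of endosperm and embryo were read on the same arrays. The summed signal of the 5 endosperm markers was 20313 and 21038 on the micropylar and 35885 and 42341 on the cellularized endosperm arrays. It was 1535 and 1486 on the chalazal seed coat arrays and 3405 and 3910 on the general seed coat arrays. On the general seed coat arrays SWEET15 read 1452 and 2872, GH9C1 1419 and 329, EXPA4 258 and 371, SWEET11 148 and 252, and SHT 129 and 86.5. SWEET11 was higher on the chalazal seed coat arrays, at 1212 and 1081. The summed signal of the 3 embryo markers was 19.4 and 74.2 on the chalazal and 61.3 and 137 on the general seed coat arrays, which overlap. Of the 3, YAB3 averaged 5.99 in the chalazal and 47.3 in the general seed coat, YAB5 averaged 6.68 and 36.4, and BBM went the other way with 34.1 and 15.3. The part of endosperm or embryo RNA in the general seed coat signal of the 54 genes was not tested. Chalazal endosperm markers summed to 48535 and 49286 on their own arrays, and to 7043 and 891 on the chalazal seed coat arrays. Chalazal seed coat markers summed to 37368 and 47833 on their own arrays, and to 3602.5 and 2198 on the chalazal endosperm arrays. The part of such shared signal in the comparisons of the low compartments was not tested.

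Between the chalazal endosperm and the mean of both seed coats, 15 of the 54 genes (27.8%) were lower in the chalazal endosperm, where 21.4% of all tested probe sets were. By limma 0 were called higher (0 at an unadjusted p below 0.05), beside 14.7% of all tested probe sets, and here too the ceiling limits that direction. For AT2G34700 and AT1G65090, both among the 15, the chalazal endosperm was not lower than the chalazal seed coat. AT2G34700 averaged 105 in the chalazal endosperm, against 52.5 in the chalazal and 2502 in the general seed coat, and AT1G65090 averaged 53.7, against 53.6 and 2547. The median change was -0.74 over the 54 genes and -0.10 over all tested probe sets. AT1G12230 read 74.2 and 21.3 in the chalazal endosperm, against 439 and 191 in the chalazal and 592 and 514 in the general seed coat (-2.85, SE 0.43, adjusted p = 6.17e-05). AT1G50650 read 73.0 and 3.40, against 73.4 and 136 in the chalazal and 329 and 391 in the general seed coat (-2.33, SE 0.47, adjusted p = 0.000808). AT3G56130 read 56.3 and 59.0, against 203 and 171, and 458 and 416 (-2.04, SE 0.36, adjusted p = 0.000266). AT4G22250 read 7.89 and 7.20, against 21.1 and 16.5, and 123 and 286 (-1.84, SE 0.48, adjusted p = 0.00543). Both chalazal tissues thus read near the pseudocount of 16 for AT4G22250. Its first general seed coat array, at 123, also lay below the array median of 146. It therefore passed the filter through arrays outside the low compartments. Its chalazal seed coat was itself lower than the general seed coat, with a change of -2.56.

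In these 4 genes the chalazal endosperm arrays lay below all 4 seed coat arrays, for AT1G50650 by a narrow margin, and the calls stood under every alternative run. Of the 15 calls 6 did so. Without chalazal endosperm replicate 1, 9 of the 15 calls remained and 11 genes were lower in all (20.4%, against 16.5% of all probe sets tested then). Without replicate 2, 8 remained and 10 were lower in all (18.5%, against 17.5%). With a pseudocount of 64, 10 were lower (18.5%, against 21.3%), so which share was the larger depended on the pseudocount. With equal medians the median of all probe sets was 0.22, against -0.10 as deposited, with 54.9% of all calls higher, against 40.8% as deposited. In that setting 12 of the 54 genes were lower and 1 was higher, and the median of the 54 was -0.40. The chalazal endosperm arrays had the highest ratios of 3' to 5' signal for GAPDH but not for ubiquitin or actin, as given above, and the part of RNA quality in the low signals was not tested. The call of AT3G09735 rested on 1 array, with a change of -1.68 (adjusted p = 0.005) over both replicates and of -0.65 (adjusted p = 0.248) without chalazal endosperm replicate 1.

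The whole-seed arrays took no part in choosing the genes. Over the 54 genes whole-seed means ran from 140 to 70664, with a median of 745. In 35 genes the whole-seed mean lay between the highest low and the lowest high compartment, in 19 at or above the lowest high compartment, and in 0 at or below the highest low compartment. Set against the plain mean of the 6 compartments, whole seeds were lower for 34 genes (63.0%), where 56.0% of all tested probe sets were lower. The median of that ratio was 0.861 over the 54 genes and 0.919 over all tested probe sets. The plain mean weights each compartment equally, which the tissues of a seed do not, so the ratio is a description and is not tested. The whole-seed arrays also had the highest array medians, 183 and 179, against at most 163 in the compartments. Their GAPDH ratios of 3' to 5' signal were the lowest, at 3.17 and 2.72. Ubiquitin gave 5.36 and 6.25, beside 6.03 on the lowest compartment array, and actin gave 14.8 and 9.69, within the range of the others. The part of these differences in the ratio was not tested.

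The 3 highest ratios belonged to AT1G04660 (6.32), AT1G80280 (2.68) and AT1G71691 (2.58). AT1G04660 read 58226 and 83101 in whole seeds, against 50550 and 49989 in the embryo proper, its highest compartment. It was the 1 gene of the 54 whose whole-seed arrays both lay above all 12 compartment arrays. Of all tested probe sets 1.81% did so, and 1 gene in 54 is near that share. AT1G80280 read 2437 and 2980 in whole seeds, against 1642 and 2498 in the cellularized endosperm, where its mean was highest. AT1G71691 read 3956 and 5496 in whole seeds, below its embryo arrays of 9188 and 8631.

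The 3 lowest ratios belonged to AT1G49870 (0.318), AT4G26660 (0.327) and AT2G28620 (0.393). AT1G49870 read 355 and 194 in whole seeds, against 2592 and 1942 in the micropylar endosperm, 1409 and 1846 in the cellularized endosperm and 845 and 715 in the embryo proper. AT4G26660 read 274 and 281 in whole seeds, against 1980 and 1489 in the embryo proper and 2102 and 2611 in the cellularized endosperm. AT2G28620 read 162 and 183, against 932 and 726 and 853 and 1483 in the same tissues. In all 3 genes both whole-seed arrays lay below every array of the embryo proper and of both these endosperm parts.

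**Figure D5:**
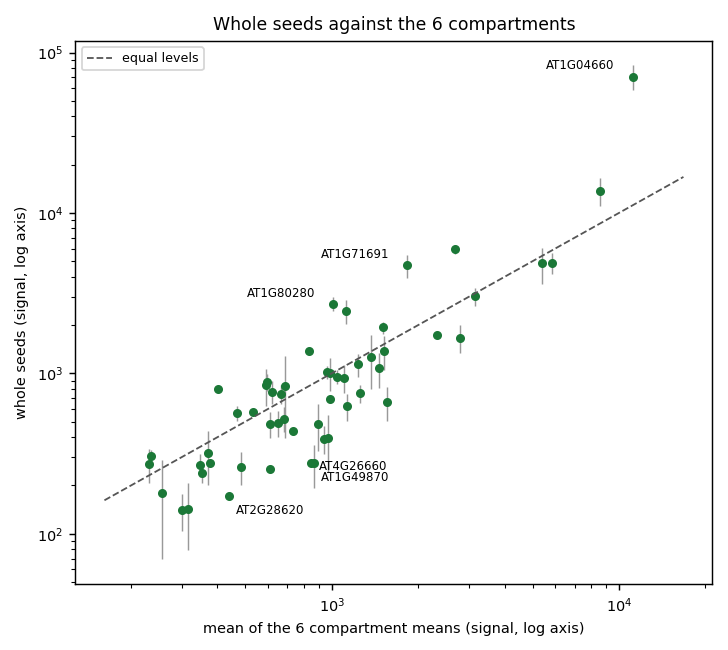
Whole-seed signal (vertical, log axis; dots are means and lines join the 2 arrays) against the mean of the 6 compartment means (horizontal, log axis) for the 54 genes; the dashed line marks equal levels. AT1G04660 lies farthest above the line, at 70664 in whole seeds, and AT1G49870 farthest below it in ratio.

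By their locus codes 19 of the 54 genes lie on chromosome 1, 7 on chromosome 2, 9 on chromosome 3, 12 on chromosome 4 and 7 on chromosome 5. In RefSeq gene order 38 of the genes had a directly neighbouring protein-coding gene with a probe set of its own, 50 such neighbours in all. None of the 50 met the thresholds, and no 2 of the 54 genes were neighbours. Only 103 of all 22810 probe sets met the thresholds, so nothing is read from these counts. The median ratio of lowest high to highest low compartment was 0.319 over the neighbours and 0.355 over all tested probe sets. The closest was AT3G20270, beside AT3G20260, with a ratio of 2.48 and means of 587, 884 and 1134 in the embryo proper, micropylar and cellularized endosperm, against 57.3, 82.9 and 236 in the chalazal endosperm, chalazal seed coat and general seed coat. AT3G20260 itself read 479 and 321, 230 and 439, and 1257 and 580, against 30.4 and 27.0, 88.8 and 46.2, and 13.4 and 98.6.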

How the data were processed

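RNA of 14 samples in 7 groups of 2 was measured on Affymetrix ATH1 arrays. The authors deposited linear signal intensities per probe set, made with GCOS per the submitters' processing notes. The version, background step and summary method are not given in the sources used here, and the values have a 2%-trimmed mean of 500 on every array. Scanner files were not used here. Gene names came from the platform's annotation table, with the RefSeq table of TAIR10.1 for gene type, synonyms and order.

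Groups followed the sample titles. The 54 genes and all lists were chosen with earlier results of these data known. Of 22810 probe sets, the 64 controls were left out, and 15951 at or above their array's median on at least 2 arrays were tested, all 54 genes among them. limma 3.58.1 in R 4.3.3 was fitted to log2(signal + 16) with 7 group means and a variance trend, leaving 7 residual degrees of freedom. P-values were adjusted by Benjamini-Hochberg within each of 5 comparisons, and the fit was tested on simulated data. Log2 changes understate folds of low genes.

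Genes named are the 8 strongest, the 6 with the largest ratio, up to 4 called genes each way per comparison with arrays that did not overlap, 3 on each side of each threshold, and the 3 highest and 3 lowest in whole seeds. AT5G51560 against the cellularized endosperm, AT3G09735, AT2G34700 and AT1G65090 in the comparison of chalazal endosperm with the seed coats, AT4G13050 and AT4G02800 between the seed coats, AT3G20260 with its neighbour AT3G20270, and the genes with symbols fall outside this rule and were named after their values were seen. Replicate numbers did not pair the samples.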

Additional observations from a re-analysis of the deposited data

Results flagged for a closer look

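The whole-seed arrays took no part in the choice of the genes and were contrasted in none of the 5 comparisons. They did enter the filter and the estimate of spread that all groups share. On these arrays AT1G04660 was the 1 gene of the 54 that was flagged. Its whole-seed mean was 70664, and both whole-seed arrays lay above all 12 compartment arrays. Of all tested probe sets 1.81% had whole-seed arrays placed in this way. A count of 1 gene in 54 is near that share, so nothing about the 54 genes is read from it.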

How the results depend on the processing

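Over 48 calls of the 54 genes, 542 of 654 recomputed values kept the call, 112 lost it and 0 changed direction. 17 calls held under every setting run. Leaving out an array ended 80 of 222. With 1 array left out, the probe sets called numbered 1185 to 1579 between embryo proper and cellularized endosperm (2442 with all arrays), 1205 to 1273 between embryo proper and micropylar endosperm (2433), 254 to 459 between micropylar and cellularized endosperm (1048), 4028 to 5551 between chalazal endosperm and seed coats (5768) and 1553 to 1623 between the seed coats (2331). The genes called among the 54 then numbered 4 to 6, 1 to 5, 0 to 2, 10 to 19 and 9 to 13 in the same order, genes not called with all arrays included. The fit then has fewer arrays, and the lone array of a group is assumed to vary like the other groups. Without the variance trend, 650 probe sets and 2 of the 54 genes were called between micropylar and cellularized endosperm, and the cause was not tested. With equal medians the higher and lower calls over all probe sets were 860 and 1447 for embryo proper against cellularized endosperm, 409 and 635 for micropylar against cellularized endosperm, and 3326 and 2733 for chalazal endosperm against the seed coats. A ratio of at least 2 gave 121 genes and of at least 5 gave 12, while a minimum signal of 200 gave 57 and of 500 gave 43.

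Samples of the same replicate number did not deviate together, with correlations of -0.111 to 0.146 over 21 pairs of groups and 1 pair over 0.1. With the replicate number as a block, 9, 7, 4, 16 and 13 of the 54 genes were called, against 9, 7, 4, 15 and 13 without it. A class of genes by function and a search of promoters for motifs were not run, for want of descriptions and sequences here. Low values in the chalazal endosperm and seed coats spread most between replicates, so changes there are the least precise.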
